A study of Homo sapiens with 6 samples.

Results

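The genes described here are those with the highest read counts among genes that the deposited DMSO table lists and the ATRA table does not. Of 451 such genes, the 150 with the highest mean CPM (counts per 1000000, by the table's column total) over the 3 DMSO libraries were kept, and TPSB2 and ERG were then set aside by the rule, which left 148 members of the 12752 genes in the table. The rule also set aside ELANE and DPF3, which were not among the 150. Members were chosen by their level, which is given below as a description, and 2 of the 3 libraries behind that level are hairpin libraries. The choice therefore bears on the hairpin to control difference: 20 members had a control level under 0.923 CPM, the mean of the lowest member, and reached the list through the hairpin libraries. The name "abundant" held only within the DMSO-only genes: 147 of the 148 members lay below 34.9 CPM, the median of all genes in the table. At the rank limit KLRC3, MYT1L and ALDH7A1 were just inside at 0.933, 0.932 and 0.923 CPM, and SSTR2, CA9 and RTN4RL1 just outside at 0.913, 0.883 and 0.881 CPM.

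The RNA-seq came from NB4, an established human line of acute promyelocytic leukemia. The cells carried shRNA1 or shRNA2, short hairpins against SMARCD2 (called hairpin 1 and hairpin 2 here), or a control construct, and were kept undifferentiated in DMSO, the vehicle. There was 1 library per construct, so that the knockdown group had 2 libraries and the control group 1, and the same 3 constructs treated with 1 µM ATRA (all-trans retinoic acid) gave the other table. The labels do not say whether libraries came from separate cultures. The p-values rest on the spread between the 2 hairpin libraries, since the lone control gives none. Those 2 libraries differ in construct, and their spread may also be technical.

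NB4 cells carry the PML-RARA fusion, which holds them at the promyelocyte stage, and ATRA releases that block and drives granulocytic maturation. SMARCD2 is a subunit of the BAF (SWI/SNF) complex, which uses ATP to move nucleosomes and so changes access to DNA. In people and mice, SMARCD2 is needed to form neutrophil granules.

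In DMSO, hairpin 1 held 58099733 counts, hairpin 2 held 41846630 and the control held 29291209, each summed over 2 deposited count columns. These are called run 1 and run 2 here, and no label says whether they are sequencing runs or something else. Run 1 gave 80.7% and 70.6% of the hairpin libraries and 54.6% of the control library, so the mix of columns differed between the groups. SMARCD2 stood at 40.5 CPM with hairpin 1 and 27.0 CPM with hairpin 2, against 100.5 CPM in the control (log2 fold change -1.55 ± 0.20, SE, n = 2 against 1; edgeR quasi-likelihood test, adjusted p = 0.19). Promyelocyte markers were all listed (10 of 10), led by the myeloperoxidase gene MPO at 10425 CPM. Summed levels of the other marker lists ranged from 33.0 to 398 CPM over the hairpin libraries and from 37.3 to 395 CPM in the control. Of these, 4 of 17 erythroid and megakaryocyte markers were listed, 9 of 16 lymphocyte markers, 5 of 12 monocyte and macrophage markers and 6 of 15 fibroblast, endothelial and epithelial markers.

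No value was set for the members in ATRA. The lowest gene listed for ATRA averaged 0.0885 CPM, and 944 genes were listed there at less than 0.923 CPM, the level of the lowest member in DMSO. In both tables every listed gene had a count of at least 8 in at least 1 run. How the authors chose the genes to list is not stated in any source used, so neither the direction nor the size of any difference of the members between ATRA and DMSO was measured.

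CHAT, which encodes choline acetyltransferase, the enzyme that makes acetylcholine, had the highest level of the members. It stood at 54.9 CPM with hairpin 1 and 52.3 CPM with hairpin 2, against 59.1 CPM in the control. Its mean of 55.4 ± 3.45 CPM (SD, n = 3 constructs) put it at rank 4666 of the table, and the next member, LCN10, was at rank 8050. Per kilobase of annotated exon, which is the scale for comparing genes, CHAT also came first among the 145 members with an exon length, at 14.8 CPM per kb. The next were the lipocalin gene LCN6 at 5.46, PNMT, whose enzyme makes adrenaline from noradrenaline, at 5.39, the transcript elongation factor gene TCEA3 at 4.80, LCN10 at 4.69 and the secreted angiopoietin-like gene ANGPTL2 at 4.38 CPM per kb. Below these the members thinned out: 8 of 148 had a mean of at least 10 CPM, 60 had at least 2 CPM, and the median was 1.69 CPM.

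**Figure D1:**
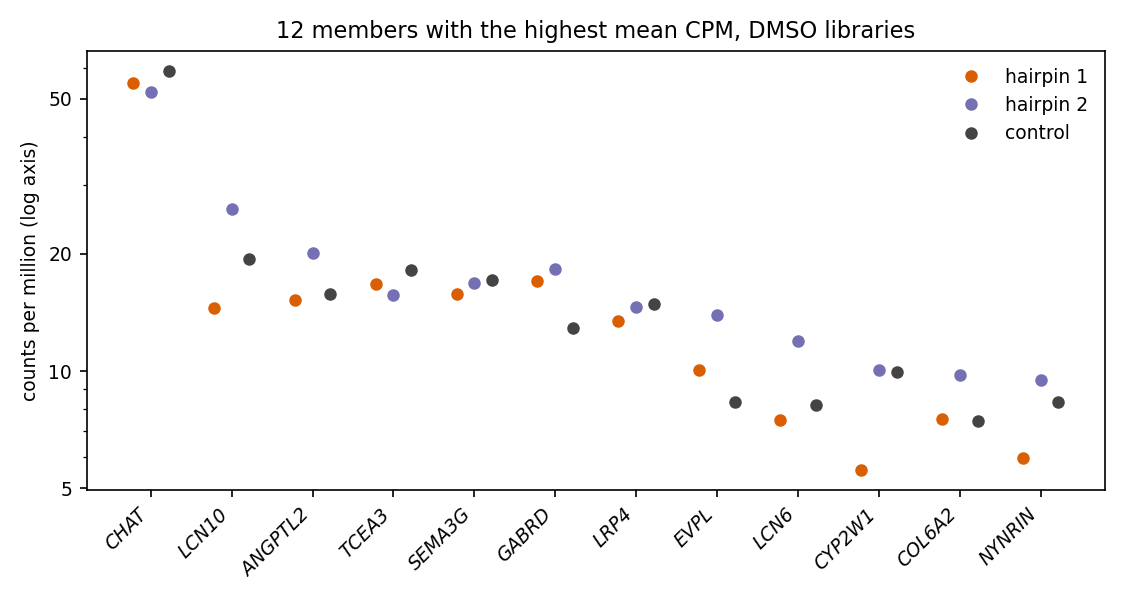
CPM (log axis) of the 12 members with the highest mean, with 1 point for each DMSO library (hairpin 1, hairpin 2 and control). CHAT lies between 52.3 and 59.1 CPM in the 3 libraries, above all other members, and LCN10 between 14.5 CPM with hairpin 1 and 26.0 CPM with hairpin 2.

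The 300 bases around a RefSeq start (250 before and 50 after, build GRCh38.p14) are shown for CHAT, the highest member, and for 2 pairs of members that are next to each other in the genome. The GC box GGGCGG and the TATA box TATAAA, on either strand, are in capitals. GGGCGG was in 44.95% of the 35116 promoters in the table and TATAAA in 11.5%. RefSeq lists 3 starts for CHAT and the most upstream is printed; the counts do not show which start was used.
CHAT: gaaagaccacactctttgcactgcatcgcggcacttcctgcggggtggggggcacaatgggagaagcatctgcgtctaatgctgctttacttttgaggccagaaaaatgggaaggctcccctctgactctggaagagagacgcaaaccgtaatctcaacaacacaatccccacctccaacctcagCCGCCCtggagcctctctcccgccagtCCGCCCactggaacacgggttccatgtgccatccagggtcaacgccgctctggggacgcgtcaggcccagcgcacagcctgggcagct
The CHAT window (chr10:49608845-49609144, plus strand) held 2 GC boxes and 15 CpG, and its GC content was 60.0%. LCN10 and LCN6 encode secreted lipocalins, carriers of small lipophilic molecules known from the epididymis.
LCN10: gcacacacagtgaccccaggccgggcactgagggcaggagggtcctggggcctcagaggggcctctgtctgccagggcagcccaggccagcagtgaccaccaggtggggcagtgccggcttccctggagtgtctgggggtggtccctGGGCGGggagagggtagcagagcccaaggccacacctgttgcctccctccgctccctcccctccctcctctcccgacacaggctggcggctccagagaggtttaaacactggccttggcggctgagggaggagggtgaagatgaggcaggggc
LCN6: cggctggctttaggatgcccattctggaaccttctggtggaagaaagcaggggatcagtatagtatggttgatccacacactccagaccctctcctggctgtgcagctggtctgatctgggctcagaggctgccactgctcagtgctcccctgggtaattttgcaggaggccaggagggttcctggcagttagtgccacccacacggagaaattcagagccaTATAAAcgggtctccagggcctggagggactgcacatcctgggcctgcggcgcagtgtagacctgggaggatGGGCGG
The LCN10 window (chr9:136742891-136743190, minus strand) held 1 GC box and 7 CpG, and the LCN6 window (chr9:136748476-136748775, minus strand) held 1 GC box, 1 TATA box and 6 CpG. MCIDAS encodes a coregulator that starts the multiciliated cell programme and CCNO a cyclin-like protein needed to amplify centrioles in the same cells.
MCIDAS: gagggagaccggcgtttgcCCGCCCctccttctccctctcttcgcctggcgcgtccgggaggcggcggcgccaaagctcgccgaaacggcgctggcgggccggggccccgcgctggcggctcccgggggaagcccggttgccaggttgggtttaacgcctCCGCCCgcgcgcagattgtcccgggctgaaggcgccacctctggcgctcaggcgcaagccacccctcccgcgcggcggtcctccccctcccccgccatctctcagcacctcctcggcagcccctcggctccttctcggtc
CCNO: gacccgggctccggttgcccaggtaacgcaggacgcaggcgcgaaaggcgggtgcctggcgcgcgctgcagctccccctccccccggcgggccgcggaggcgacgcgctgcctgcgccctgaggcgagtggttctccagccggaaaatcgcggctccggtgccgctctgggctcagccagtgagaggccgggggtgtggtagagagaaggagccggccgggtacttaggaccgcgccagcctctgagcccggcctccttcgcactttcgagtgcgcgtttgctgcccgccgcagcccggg
The MCIDAS window (chr5:55227266-55227565, minus strand) held 2 GC boxes and 38 CpG. The CCNO window (chr5:55233559-55233858, minus strand, the most upstream of 2 listed starts) held 0 GC boxes and 37 CpG. AGGTCA (13.8% of all promoters), GATAAG (6.36%), TTGCGCAA (0.151%), CCGGAAG (10.3%) and TGACTCA (4.95%) were searched on both strands and were in 0 of these 5 windows. Of the 148 members, 106 (71.6%) had a promoter in the table, under the 80% needed, so a comparison of base composition or motifs over the set is void.

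The comparison of knockdown with control asked whether partial loss of SMARCD2 changes these genes in undifferentiated cells. No member was called, but neither was SMARCD2 itself, so the lack of a call does not show that a member was unchanged. The test found 0 of 148 members at an adjusted p under 0.05 in either direction, beside 0% of the 12752 genes tested (edgeR quasi-likelihood test, 1 residual degree of freedom; 774 genes at an unadjusted p under 0.05). At an unadjusted p under 0.05, 5 members were higher and 5 lower with the hairpins (3.38% each), beside 3.48% and 2.59% of all genes. DESeq2 called 24 genes of the table, 0 of them members (306 genes, or 2.40%, and 2 members, or 1.35%, at an unadjusted p under 0.05), and limma-voom called 0 genes (588 at an unadjusted p under 0.05, 6 of them members). The authors' deposited table, which gives an adjusted p for 91 of the members, calls 0 of them, beside 0.903% of its genes higher and 0.365% lower. The smallest adjusted p of a member was 0.66 in the edgeR test, and every member value below is given as a value that did not pass it.

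The median log2 fold change of the members was -0.04, against 0.00076 over all genes, and the quartiles were -0.33 and 0.28. Single values spread more widely than in the table as a whole: the median absolute log2 fold change was 0.31 in the members and 0.090 over all genes. The median standard error was 0.37 in the members and 0.099 over all genes, at a median of 52.5 control counts in the members and 1024 over all genes. Both hairpin libraries were above the control in 45 members (30.4%; 34.6% of all genes) and both below in 64 (43.2%; 35.3% of all genes), and the control lay between the hairpins in 39. These counts and the median depend on how members were ranked. Ranked by the control library alone, which favours genes high in the control as the mean of 3 favours genes high with the hairpins, 149 genes had both hairpins above the control in 29, both below in 82, and a median of -0.19. At least 1.5-fold in both hairpins, 7 members were higher and 7 lower (4.73% each), beside 1.2% and 1.31% of all genes. Among the 7049 genes in both tables whose mean lay within the members' range of levels these shares were 0.95% and 0.738%, at a median of 562 control counts. All 7 higher members had a control level under that of the lowest member, and with the ranking by the control library 0 genes were higher and 17 lower, so neither count is a result about the members. With both 95% exact counting intervals clear of equality, 8 members were above the control (5.41%; 11% of all genes) and 15 below (10.1%; 9.57% of all genes). Those intervals cover counting error only, since reads without molecular identifiers are not independent molecules.

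LILRB4, an inhibitory immunoglobulin-like receptor of myeloid cells, had the largest positive difference, and its control level was the lowest of the 148 members. Among the 10 largest positive differences 8 had a control level under that of the lowest member, all but KLHL30 and HES2, so they were members only through the hairpin libraries, and their differences are a description. LILRB4 stood at 0.843 CPM with hairpin 1 and 2.80 CPM with hairpin 2, against 0.410 CPM in the control, from 49, 117 and 12 counts. The log2 fold change was 2.12 ± 0.85 (adjusted p = 0.80, edgeR quasi-likelihood test), and the log2 ratio to the control was 1.02 for hairpin 1 and 2.72 for hairpin 2. Both hairpins were above the control, with hairpin 2 far above hairpin 1. TPSD1, a mast cell tryptase gene, stood at 1.05 and 1.77 CPM with hairpins 1 and 2, against 0.580 CPM in the control (1.27 ± 0.53). Reads of near-identical tryptase, LILR and KLRC copies can be shared, so these sizes are uncertain. SYNPO2L, an actin-associated gene of muscle, stood at 1.26 and 2.37 CPM with hairpins 1 and 2, against 0.751 CPM in the control (1.26 ± 0.52). The growth factor gene FGF6 stood at 0.998 and 1.60 CPM, against 0.580 CPM in the control (1.15 ± 0.52). For both, hairpin 2 was the highest library and the control the lowest.

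The next in size were KLHL30 (log2 fold change 1.13 ± 0.52), VAT1L (1.11 ± 0.49), the HES family repressor gene HES2 (1.06 ± 0.48), the fatty acid transporter gene SLC27A6 (0.92 ± 0.63), the platelet-derived growth factor gene PDGFA (0.85 ± 0.43) and the NK receptor gene KLRC3 (0.74 ± 0.46). With hairpin 1 alone KLHL30 stood at 0.39, VAT1L at 0.64, HES2 at 0.40 and SLC27A6 at 0.21, against 1.63, 1.47, 1.52 and 1.41 with hairpin 2 alone, so that hairpin 2 carried most of these values. In run 1 alone and in run 2 alone the log2 ratios to the control were 1.21 and 0.27 for LILRB4 with hairpin 1, and 2.78 and 2.56 with hairpin 2. For TPSD1 they were 1.69 and 0.014 with hairpin 1, and 2.503 and 0.60 with hairpin 2. For SYNPO2L they were 1.30 and 0.16 with hairpin 1, and 2.25 and 0.93 with hairpin 2. SLC27A6, PDGFA and KLRC3 were above the control with hairpin 1 in run 1 (0.45, 1.13 and 1.72) but below it in run 2 (-0.67, -0.58 and -0.34). Ratios from a single run have no counting interval here and rest on only part of few reads. KLRC3 had 61 counts with hairpin 1, 46 with hairpin 2 and 19 in the control over both runs.

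On the other side, ARMC4, an outer dynein arm docking gene of motile cilia, stood at 1.79 CPM with hairpin 1 and 1.27 CPM with hairpin 2, against 3.31 CPM in the control. Its log2 fold change was -1.09 ± 0.33 (adjusted p = 0.70, edgeR quasi-likelihood test), with -1.06 and -0.29 for hairpin 1 in runs 1 and 2, and -1.31 and -1.57 for hairpin 2. Both hairpins were below the control in each run. ACSL6, an acyl-CoA synthetase gene, had the smallest adjusted p of the members: it stood at 4.54 and 4.66 CPM with hairpins 1 and 2, against 7.44 CPM in the control (-0.68 ± 0.19, adjusted p = 0.66). The hairpins nearly coincided. GLP1R, the receptor of the incretin hormone GLP-1, stood at 5.35 and 3.13 CPM, against 7.14 CPM in the control (-0.72 ± 0.31). FBLN1, a matrix fibulin gene, stood at 1.84 and 2.37 CPM, against 3.79 CPM in the control (-0.84 ± 0.28).

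The others of the 10 lowest were the mucin gene MUC1 (-0.96 ± 0.37), TGFBR3L (-0.92 ± 0.48), the cartilage collagen gene COL2A1 (-0.74 ± 0.32), the ephrin ligand gene EFNA1 (-0.71 ± 0.39), RGS9BP, an anchor of a regulator of G protein signalling (-0.68 ± 0.27), and the WNT ligand gene WNT11 (-0.68 ± 0.38). MUC1 and RGS9BP were below the control with hairpin 1 in run 1 (-1.64 and -1.003) and above it in run 2 (0.83 and 0.27). Over both runs MUC1 had 57 counts with hairpin 1, 37 with hairpin 2 and 54 in the control. Whether counting error alone gives such changes between runs was not tested. COL2A1 had -1.17 in run 1 and -0.031 in run 2 with hairpin 1, and -1.07 and -0.10 with hairpin 2.

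**Figure D2:**
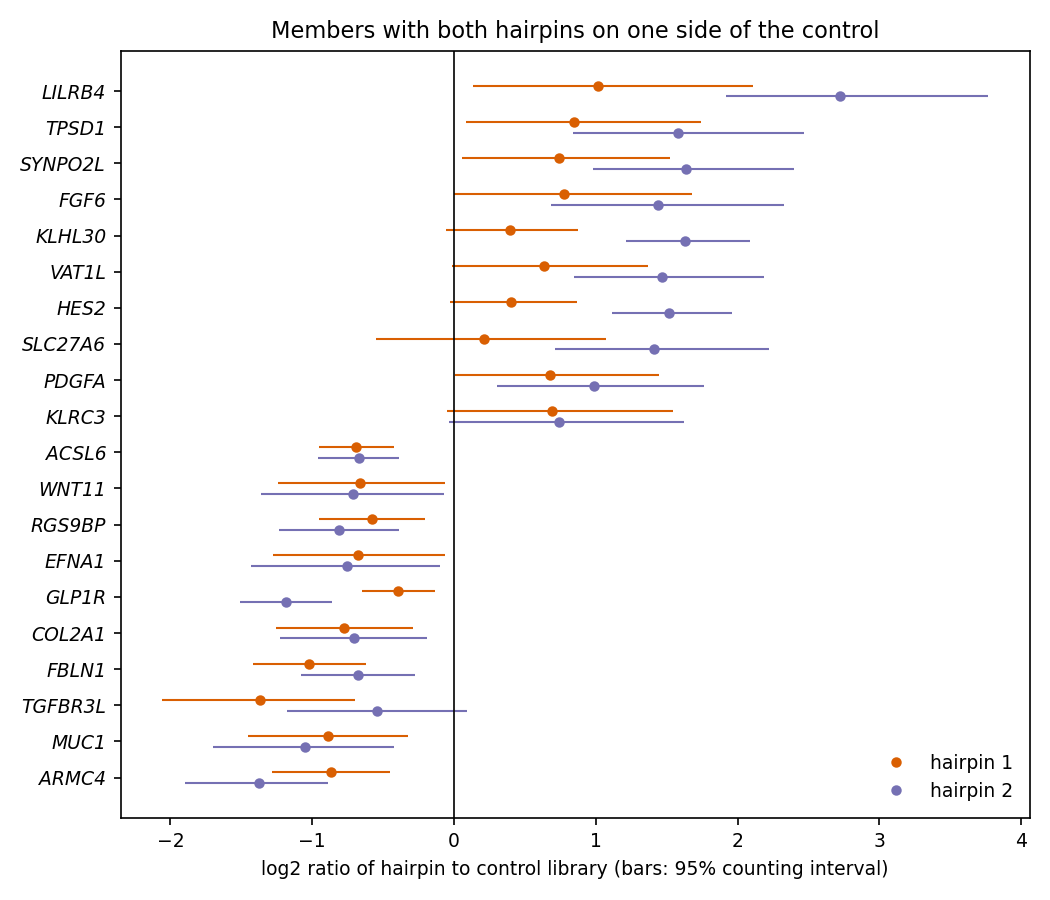
Log2 ratio of each hairpin library to the control library in DMSO for the 10 members with the largest positive and the 10 with the largest negative fitted log2 fold change among those with both hairpins on one side. Points are hairpin 1 and hairpin 2 and bars are 95% counting intervals; LILRB4 is at 1.02 and 2.72, and ACSL6 at -0.69 and -0.67.

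Among members at 2 CPM or more the median absolute log2 fold change was 0.28, and among those under 2 CPM it was 0.34. GABRD, the delta subunit of the GABA-A receptor, stood at 17.0 and 18.3 CPM with hairpins 1 and 2, against 12.9 CPM in the control (0.47 ± 0.13, adjusted p = 0.66, edgeR quasi-likelihood test). EVPL, which encodes the junction protein envoplakin, stood at 10.1 and 13.9 CPM, against 8.33 CPM in the control (0.53 ± 0.22). For both genes the hairpins lay above the control. CHAT had a log2 fold change of -0.13 ± 0.08, TCEA3 of -0.15 ± 0.13, the semaphorin gene SEMA3G of -0.06 ± 0.13 and LRP4, the agrin receptor of the neuromuscular junction, of -0.07 ± 0.14. ANGPTL2 had 0.17 ± 0.18, COL6A2 0.22 ± 0.21, LCN6 0.25 ± 0.27, LCN10 0.07 ± 0.29, NYNRIN -0.10 ± 0.27 and the cytochrome P450 gene CYP2W1 -0.35 ± 0.32. With hairpin 2 alone and with hairpin 1 alone, LCN6 stood at 0.55 and -0.11, LCN10 at 0.43 and -0.40, NYNRIN at 0.19 and -0.46, CYP2W1 at 0.02 and -0.82, and ANGPTL2 at 0.35 and -0.03. By value the hairpins lay on opposite sides of the control in these 5 genes, but only LCN10 had both counting intervals clear of equality. The interval included equality for hairpin 1 in ANGPTL2 (-0.20 to 0.13) and LCN6 (-0.34 to 0.13). It did so for hairpin 2 in CYP2W1 (-0.20 to 0.24) and NYNRIN (-0.04 to 0.43). In run 1 alone hairpin 1 was above the control in ANGPTL2 (0.08), and in run 2 alone hairpin 2 was below it in CYP2W1 (-0.10). LCN10, LCN6 and NYNRIN kept their sides in each run. COL6A2 stood at 0.40 with hairpin 2 alone and 0.03 with hairpin 1 alone.

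By function, 124 members were put in 9 groups by hand from textbook knowledge, after their levels were known, and no group had a called member. The counts of members on one side in each group stand beside 34.6% of all genes with both hairpins above the control and 35.3% with both below, and nothing particular to a group is drawn from them. The group of transmitter, synapse and neuron genes held 21 members with a median log2 fold change of -0.04, 7 with both hairpins above the control and 10 with both below. It included CHAT, GABRD, PNMT (6.37 and 8.51 CPM with hairpins 1 and 2, against 8.71 CPM in the control) and the kainate receptor gene GRIK3 (1.64 and 2.96, against 2.66 CPM). Channels, pumps and transporters numbered 16 (median -0.11), among them 4 aquaporin genes. The water and glycerol channel gene AQP3 stood at 5.59 and 5.16 CPM with hairpins 1 and 2, against 7.20 CPM in the control. AQP1, AQP5 and AQP6 had log2 fold changes of -0.50 ± 0.43, -0.29 ± 0.36 and 0.26 ± 0.33.

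The group of signalling ligands and receptors was the largest, with 23 members and a median of -0.12. It also held genes that are neither, such as HES2, CITED1 and DEPTOR. Both hairpins were below the control in 15 of the 23 and above it in 6. The fibroblast growth factor receptor gene FGFR3 stood at 4.68 and 7.65 CPM with hairpins 1 and 2, against 4.71 CPM in the control, so that hairpin 1 and the control nearly coincided. WNT6 had a log2 fold change of -0.05 ± 0.38, the netrin gene NTN3 -0.52 ± 0.26, the hedgehog ligand gene SHH -0.34 ± 0.41 and the hedgehog signal transducer gene SMO 0.13 ± 0.37. Motile cilium genes had the lowest median, -0.38 over 8 members, with both hairpins below the control in 5. MCIDAS stood at 1.31 and 1.34 CPM with hairpins 1 and 2, against 1.02 CPM in the control, and CCNO at 1.14 and 1.29, against 0.853 CPM. CCDC40, which sets the spacing of the axoneme, stood at 1.77 and 0.884 CPM, against 2.01 CPM in the control.

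Cytoskeleton and junction genes had the highest median, 0.32 over 14 members, with both hairpins above the control in 7. In 3 of the 14, and in 3 of the 9 blood cell and immunity genes, the control level was under that of the lowest member. The median of the cytoskeleton and junction group was -0.05 with hairpin 1 and 0.56 with hairpin 2. Blood cell and immunity genes (9 members, median 0.26) had medians of 0.12 and 0.54, and matrix and secreted protein genes (12 members, 0.15) of -0.12 and 0.37. Medians were -0.09 in 10 enzymes of metabolism and -0.0027 in 11 transcription and germ line genes. The fibrillar collagen gene COL5A1 had a log2 fold change of 0.52 ± 0.27.

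**Figure D3:**
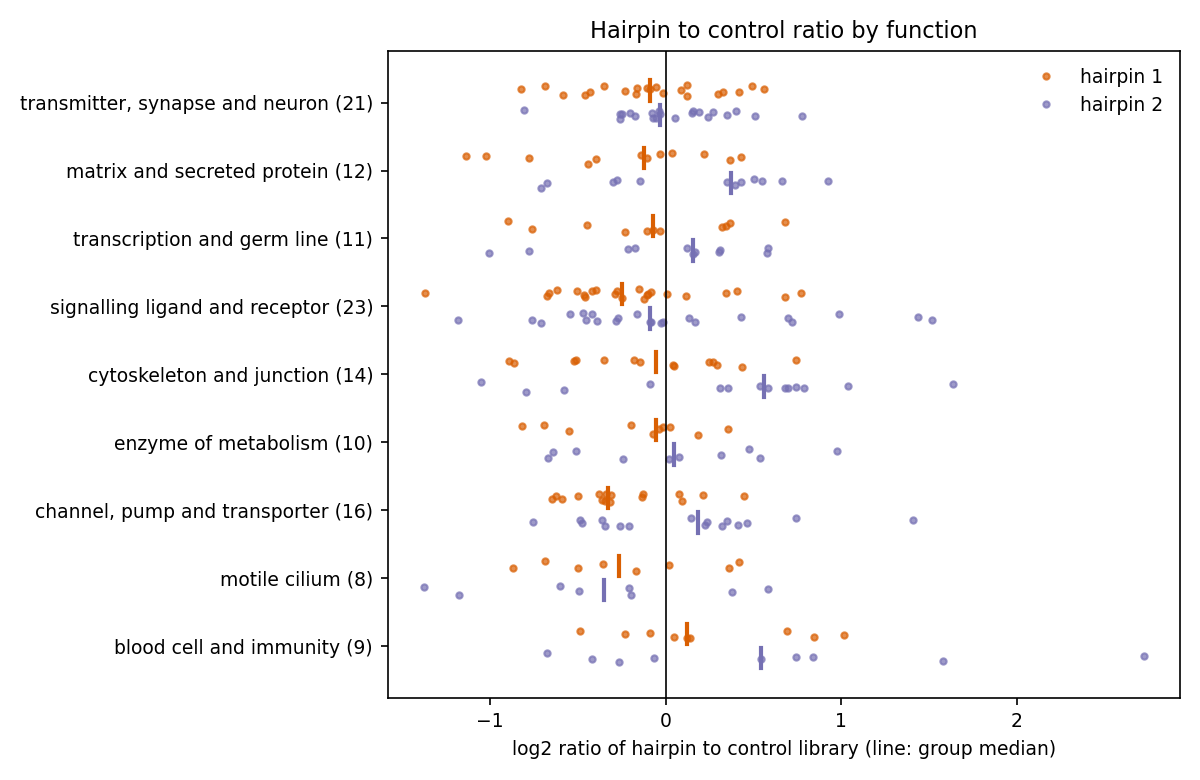
Log2 ratio to the control library for each member in 9 groups of function (number of members in brackets), for hairpin 1 and hairpin 2, with the group median as a line. Cytoskeleton and junction genes have medians of -0.05 with hairpin 1 and 0.56 with hairpin 2, and motile cilium genes of -0.26 and -0.35.

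The hairpin libraries also differed from each other, mostly with hairpin 2 above hairpin 1. Hairpin 2 was at least 1.5-fold above hairpin 1 in 35 members (23.6%), beside 3.72% of all genes, and at least 1.5-fold below it in 6 (4.05%), beside 1.63%. Among the 7049 genes in both tables within the members' range of levels the shares were 2.65% and 1.19%. Those genes had a median of 562 control counts, against 52.5 in the members, so counting error was larger in the members and its part in the shares was not tested. The median log2 difference between hairpin 2 and hairpin 1 was 0.22 in the members, -0.0013 over all genes and 0.24 in the other 303 DMSO-only genes. With 1 library each, the difference has no replicate check and no test. Hairpin 1 was the deepest library, and the part of depth was not tested either. The choice by level bears on these counts too: of the 35 members, 9 had a hairpin 1 level under 0.923 CPM, and ranking by the control library gave 30 and 9 genes.

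All 35 of these members were higher with hairpin 2 in run 1 and in run 2, and 25 were at least 1.5-fold higher in both. The 35 were chosen on the sum of these same runs, which largely sets this agreement, so it is not a separate check. Hairpin 2 was above the control in 33 of the 35 and hairpin 1 below it in 22. Over all members, hairpin 2 was the highest of the 3 libraries in 71 (48.0%; 33.2% of all genes), hairpin 1 in 14 (9.46%; 31.8%) and the control in 63 (42.6%; 35.1%). WFDC1, which encodes a secreted whey acidic protein domain protein, had the largest difference: it stood at 1.77 CPM with hairpin 2 and 0.413 CPM with hairpin 1, and at 0.922 CPM in the control. ESPN, an actin bundling gene of hair cell stereocilia, stood at 11.8 CPM with hairpin 2, 5.11 CPM with hairpin 1 and 5.74 CPM in the control. HES2, the gene next to ESPN, stood at 5.88 CPM with hairpin 2, 2.69 CPM with hairpin 1 and 2.05 CPM in the control. Both genes were high in the hairpin 2 library and close together in the other two.

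LCN10 stood at 26.0 CPM with hairpin 2, 14.5 CPM with hairpin 1 and 19.4 CPM in the control, and LCN6 at 11.9, 7.47 and 8.16 CPM. The neighbouring lipocalin genes thus had the same order by value, with hairpin 2 first and hairpin 1 last. For LCN6 the counting interval of hairpin 1 against the control included equality. The hairless corepressor gene HR stood at 2.96 CPM with hairpin 2, 1.05 CPM with hairpin 1 and 1.98 CPM in the control. In the other direction, KLF15, a zinc finger transcription factor gene, stood at 2.46 CPM with hairpin 2, 4.65 CPM with hairpin 1 and 4.95 CPM in the control. GLP1R and CCDC40, given above, were also lower with hairpin 2. Members named here for the hairpin difference were chosen after their values were seen.

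**Figure D4:**
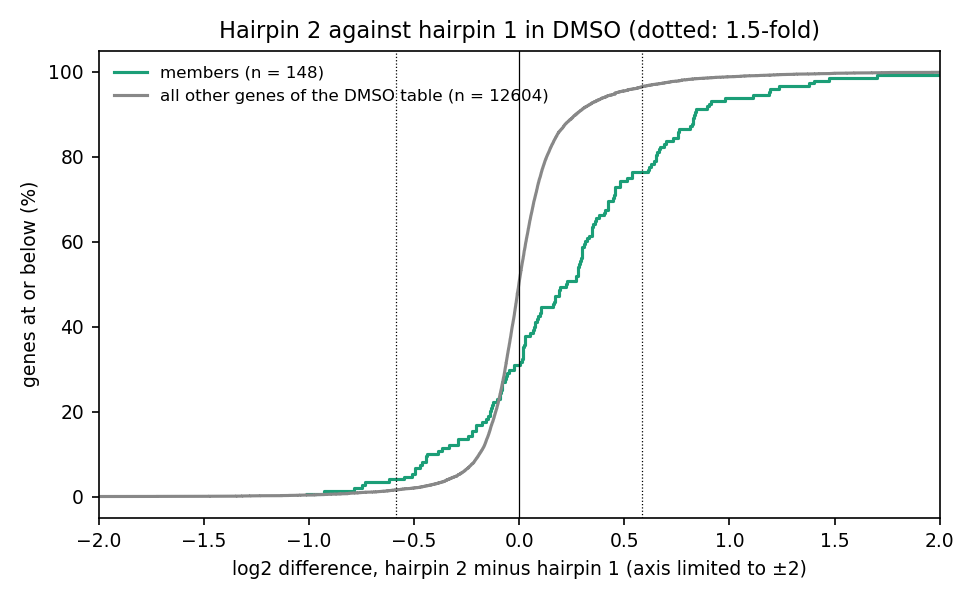
Cumulative share of genes by the log2 difference between the hairpin 2 and hairpin 1 libraries in DMSO, for the 148 members and the 12604 other genes, with dotted lines at 1.5-fold. The member curve is wider on both sides and shifted to the right: 23.6% of members are at least 1.5-fold higher with hairpin 2 and 4.05% at least 1.5-fold lower.

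By position, 146 members could be placed in the RefSeq gene order, which was used for neighbours only. Of these, 17 (11.6%) had another DMSO-only gene as a next protein-coding neighbour, beside 4.76% of the 12673 placed genes of the table. The placed genes were not matched to the members by level, and the part of level in these shares was not tested. There were 6 pairs of adjacent members: LCN10 with LCN6, HES2 with ESPN, ASB18 with IQCA1, AQP5 with AQP6, MCIDAS with CCNO, and VAX2 with ATP6V1B1. None of the 6 pairs had overlapping gene models. No source used says whether reads were counted by strand, so reads of overlapping or adjoining transcripts cannot be told apart.

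The next neighbours that both tables list numbered 190, and they were compared between treatments as a description that was chosen after the data were seen. Mean CPM was at least 2-fold lower in ATRA than in DMSO in 51 of them (26.8%), beside 11.2% of all 12301 shared genes, and at least 2-fold higher in 11 (5.79%), beside 10.1%. The median log2 ratio was -0.38 in the neighbours and -0.14 over the shared genes (0.1 CPM added to each mean, full table totals as library sizes). Means were taken over the 3 constructs of each treatment, hairpins and control together, and the shared genes were not matched to the neighbours by level. COL6A1, the neighbour of COL6A2, had the lowest ratio, with 1.05 CPM in ATRA and 57.1 CPM in DMSO (-5.64). COL6A1 and COL6A2 encode chains of the same collagen VI molecule. LHX6, next to MORN5, stood at 1.05 CPM in ATRA and 35.6 CPM in DMSO, and TNFRSF25, next to ESPN, at 1.93 CPM in ATRA and 62.8 CPM in DMSO. At the other end, TNFSF9, next to TUBB4A, stood at 15.4 CPM in ATRA and 1.76 CPM in DMSO.

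**Figure D5:**
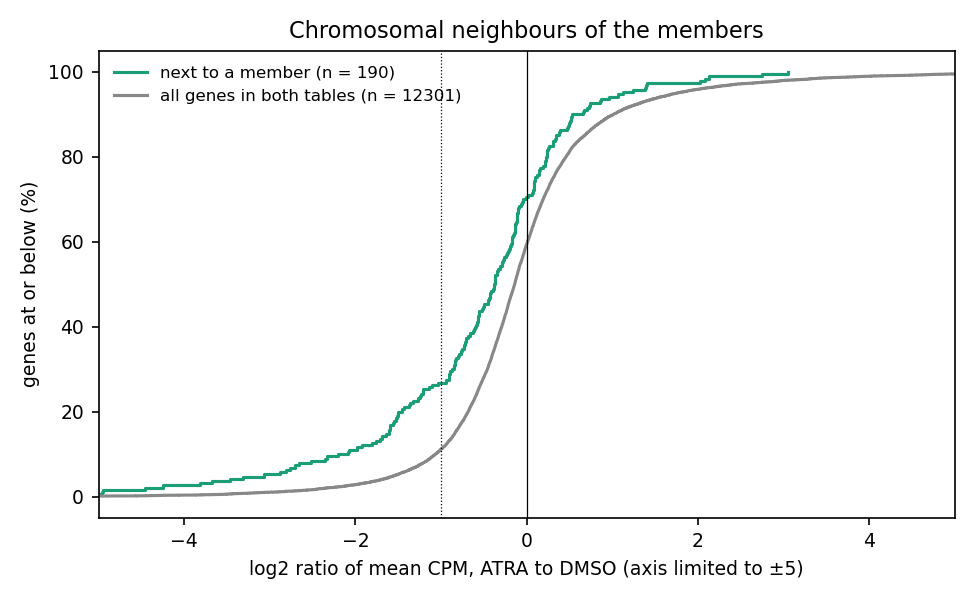
Cumulative share of genes by the log2 ratio of mean CPM in ATRA to that in DMSO, for 190 next neighbours of the members and all 12301 genes in both tables, with a dotted line at 2-fold lower. The neighbours lie to the left: 26.8% are at least 2-fold lower in ATRA, beside 11.2% of all genes.

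Gene lists of 11 pathways and cell types held 12 entries of members and had 16 to 38 tested genes each, and the edgeR test called 0 in each list in either direction. The list medians of the knockdown comparison ran from -0.10 in cadherins and protocadherins to 0.21 in promyelocyte granule genes. Collagens, laminins and basement membrane genes included 4 members (COL6A2, COL5A1, FBLN1 and COL2A1; list median -0.05 over 34 genes). Axon guidance genes included 3 (SEMA3G, NTN3 and EFNA1; -0.03 over 38), WNT genes 2 (WNT6 and WNT11; -0.04 over 32), and NOTCH genes (HES2; -0.0094 over 16), receptor tyrosine kinases (FGFR3; -0.0086 over 32) and basophil, mast cell and eosinophil genes (TPSD1; -0.05 over 23) 1 each. Promyelocyte granule (17 tested), stem and progenitor (24), homeobox (32), TGF-beta and BMP (30) and cadherin (19) lists included 0 members.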

How the data were processed

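The labels' protocols name the GeneJET kit for RNA and NEBNext Ultra RNA for libraries. The build GRCh37.p13 and the tools bcl2fastq, STAR, DESeq2 and Picard 2.5.0 come from the submitters' processing notes, with no roles stated. Each library has 2 columns of whole-number counts deposited by the authors, which were treated as 2 runs of it (an assumption). A further 12 columns of normalized copies were not used. The deposited DMSO table also gives the authors' log2 fold change for knockdown against control. Its p-value and adjusted p-value are the authors' too, and their test may have taken runs as samples.

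Runs were summed. The DMSO table was fitted whole with edgeR 4.0.16 in R 4.3.3 (filterByExpr, which removed 0 genes, TMM, quasi-likelihood test, Benjamini-Hochberg over all genes, threshold 0.05). The lone control library is assumed to vary like the hairpins, and the standard error is the absolute log2 fold change over the square root of F. Per-library log2 ratios use TMM-scaled sizes with 0.5 added to each count. Exact 95% intervals of ratios are Clopper-Pearson. CPM uses table totals. Exon lengths are unions of exons in GENCODE 29 (GRCh38). limma 3.58.1 and DESeq2 1.42.0 were alternatives, as were other scalings, no filter, each run alone, each hairpin left out and other rankings of the members. Python 3.11.15 with pandas 2.3.3, scipy 1.17.1 and matplotlib 3.10.9 was used. The fit was tested on simulated data.

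The members and the gene lists were chosen with earlier results of these data known. Genes named with values are the 12 highest by level, the 10 largest differences in each direction among members with both hairpins on one side, called members, members on a list, and those at the rank limit; further examples in the groups were chosen after their values were seen. Of classes read from symbols, solute carriers had 4 members (list median -0.0028 over 252) and histones 0 (-0.24 over 19). Symbols with the prefix ZNF had 1 (-0.01 over 444), and those with the prefixes KCN, SCN, CACN or TRP 2 (0.01 over 61). These prefixes miss other zinc finger and channel genes among the members, such as KLF15 and GABRD. LINC or antisense symbols were found in 0 genes, and 0 genes of these classes were called.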

Additional observations from a re-analysis of the deposited data

How the results depend on the processing

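No paired analysis was possible because the control group has 1 DMSO library and no ATRA library lists the members. Counts are low in most members (24 to 3188 with hairpin 1, 31 to 2187 with hairpin 2 and 12 to 1731 in the control), which limits what a ratio can show. Over all genes, 0 calls in either direction became 21 higher and 3 lower with DESeq2, 2 lower with run 1 alone, and 5 higher and 3 lower with run 2 alone; 0 members were called under any of the alternatives tested. Both hairpins were above the control in 24 of 99 members taken from the 100 highest and in 29 of 149 ranked by the control library, against 45 of 148, and both below in 46 and 82, against 64. The median was -0.07 and -0.19, against -0.04. At least 1.5-fold with both hairpins, 3 were higher and 4 lower among the 100 highest and 0 and 17 in the control ranking, against 7 and 7. Hairpin 2 was at least 1.5-fold lower than hairpin 1 in 16 members with run 2 alone, against 6. That hairpin comparison, its alternatives and the rankings of the 1.5-fold counts were added after the data were seen.

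Of 266 values of 38 named members under other scalings, tools and runs and without the filter, 259 kept their direction and 7 did not. The filter removed 0 genes, so the values without it equal those of the main fit and could not change. With run 2 alone, SEMA3G stood at 0.070, NYNRIN at 0.047, MUC1 at 0.46, RGS9BP at 0.077 and MYT1L at 0.32. WNT6 stood at 0.31 with run 1 alone and LCN10 at -0.040 with limma-voom. The cause was not tested. Each run is a part of the summed counts, so a direction kept there is not a separate check. A kept direction also says nothing of size: KLRC3, counted as kept, stood at 1.75 with run 1 alone and 0.075 with run 2 alone. The median of the members was 0.10 without hairpin 1 and -0.13 without hairpin 2. By value, 6 of these 38 members had opposite signs with the 2 hairpins (LCN10, ANGPTL2, LCN6, CYP2W1, NYNRIN and WNT6). Of these 6, only LCN10 had counting intervals clear of equality with both hairpins. Further examples named above are not among the 38, and some of them also had opposite signs. WFDC1 stood at -1.13 with hairpin 1 and 0.93 with hairpin 2, and HR at -0.90 and 0.58. Each hairpin left out gives a value with no test, since 0 residual degrees of freedom remain.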
